A study of Mus musculus and Homo sapiens with 34 samples.

Results

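The 4 ERBB receptor genes (Egfr, Erbb2, Erbb3 and Erbb4) and the genes of 6 EGF family ligands (Areg, Ereg, Hbegf, Tgfa, Btc and Epgn) were followed through 34 RNA sequencing libraries of mouse and human lung adenocarcinoma cultures. The members were the rows with these gene names, in upper case in the human tables, 10 genes among 16553 to 26245 listed genes per table. The libraries form 17 groups of 2 replicates, and the study used them to ask how the lineage regulator HNF4α and the inhibitors MRTX1133 and trametinib act on these cells.

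The 3154 organoids, 3-dimensional mouse lung cultures, carry p53frt, Rosa-FSF-CreERT2 and Hnf4aflox alleles. Their Cre is a tamoxifen-dependent fusion, and 4-hydroxytamoxifen (4OHT) was used to remove Hnf4a. In the first experiment they received ethanol or 4OHT (2 mM per the labels) for 2 days and were collected 2 weeks later. In the second, they received ethanol or 4OHT, each with vehicle or with 3 nM of the inhibitor MRTX1133, and were labelled 48 h. When and at what dose 4OHT was given in the second is not clear from the labels, so the experiments cannot be ordered by time since deletion. The 1027B organoids and the 3311 cell line both carry p53frt, Rosa-FSF-CreERT2, Foxa1flox and Foxa2flox, and no treatment to delete Foxa1 or Foxa2 is named for them. Trametinib, which inhibits MEK, was given to 1027B at 10 nM, to 3311 at 50 nM and to the human lines H358 and H1651 at 20 nM, and MRTX1133 was given to 1027B at 20 nM. Each of these treatments lasted 48 h and had its own vehicle group, which in 1027B served both inhibitors. H1651 cells with a lentiviral HNF4α construct received vehicle or 1 µg/mL doxycycline for 7 days. Organoids were kept in 50% L-WRN conditioned medium and the other cultures in 10% serum. Each culture is a single line, the labels do not say whether replicates were separate cultures, and the p-values measure only the spread between these libraries.

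ERBB receptors are cell-surface tyrosine kinases that act in pairs. EGFR binds amphiregulin (Areg), epiregulin (Ereg), HB-EGF (Hbegf), TGFα (Tgfa), betacellulin (Btc) and epigen (Epgn), whereas ERBB2 has no known soluble ligand and ERBB3, with a weak kinase, binds neuregulins. The ligands are made as membrane-anchored precursors that proteases such as ADAM17 release. Signalling runs through RAF, MEK and ERK, and in the alveolar epithelium this family is known for roles in repair and in lung adenocarcinoma.

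In GENCODE M21 (GRCm38), the genes Epgn, Ereg, Areg and Btc lie together on mouse chromosome 5, between 91027464 and 91402994, a span of 375.5 kb. Areg occupies 91139599 to 91148432 on the plus strand and Btc 91357261 to 91402994 on the minus strand. Tgfa lies elsewhere, on chromosome 6 from 86195223 to 86275719, plus strand. The 250 bases that end just before the RefSeq start (GRCm38.p6) are shown for these 3 ligands because they contrast a pair from the chromosome 5 cluster with a ligand outside it. Capitals mark motif matches.
Areg, chr5:91139349-91139598, plus strand: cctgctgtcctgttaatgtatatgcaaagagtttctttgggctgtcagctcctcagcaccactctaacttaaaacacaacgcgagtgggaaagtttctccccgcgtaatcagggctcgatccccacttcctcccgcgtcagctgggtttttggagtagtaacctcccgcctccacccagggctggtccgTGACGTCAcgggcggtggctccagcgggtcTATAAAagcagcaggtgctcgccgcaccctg
Btc, chr5:91402995-91403244, minus strand: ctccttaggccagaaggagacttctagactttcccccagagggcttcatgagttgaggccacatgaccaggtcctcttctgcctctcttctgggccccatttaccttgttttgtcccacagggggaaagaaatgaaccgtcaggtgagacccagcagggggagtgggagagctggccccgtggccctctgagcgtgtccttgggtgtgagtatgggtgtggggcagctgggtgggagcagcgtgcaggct
Tgfa, chr6:86194972-86195221, plus strand: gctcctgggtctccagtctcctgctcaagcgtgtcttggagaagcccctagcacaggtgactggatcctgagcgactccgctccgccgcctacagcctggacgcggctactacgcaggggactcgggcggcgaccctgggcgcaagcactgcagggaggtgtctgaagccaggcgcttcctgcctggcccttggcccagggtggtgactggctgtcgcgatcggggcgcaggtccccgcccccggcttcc
Matches to a cAMP response element (CRE, TGACGTCA), AP-1 (TGANTCA), FOXO (TTGTTTAC), and HNF4 (CAAAGTCCA) motifs, and to the letters TATAAA of a TATA box, were sought on both strands in the 7 members with a promoter in the table. The Areg window held the CRE letters starting 61 bases before the start and TATAAA starting 31 bases before it. Of 32851 mouse windows of this length, 1.55% held the CRE letters, 12.4% TATAAA, 6.75% the AP-1 letters, 1.07% the FOXO letters and 0.384% the HNF4 letters. The only other match was TATAAA in the Epgn window, 86 bases before its start, and the Btc and Tgfa windows held none of the 5 motifs. A match describes letters only.

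Library totals ran from 19692517 to 45284286 counts. The targeted gene was lower after deletion and higher after induction: Hnf4a was 371 ± 79.6 CPM (CPM, the count scaled by library size; SD, n = 2) with ethanol and 60.7 ± 10.2 CPM with 4OHT at 2 weeks, and the induced H1651 cells had 95.6 ± 1.73 CPM of HNF4A against 41.5 ± 7.89 CPM. The summed level of 5 epithelial markers was 6158 to 10911 CPM over the mouse libraries and 3601 to 6927 CPM over the human ones, but EPCAM, a defining epithelial marker, was only 0.993 to 3.81 CPM in H1651. The sum of 6 fibroblast markers was 0.0898 to 15.8 CPM in mouse and 40.8 to 725 CPM in human libraries. In bulk samples, fewer cells of a type and less RNA per cell cannot be told apart.

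Levels of different genes were compared in the mouse cultures as CPM per kb of exon, with lengths from GENCODE M21. Areg was highest of the family in every control group, at 124 ± 1.03 CPM per kb in ethanol-treated 3154 at 2 weeks, 138 ± 79.3 at 48 h, 60.8 ± 4.01 in 1027B and 221 ± 43.5 in 3311. Erbb3 led the receptors, with 53.4 ± 5.50, 67.7 ± 25.2, 58.6 ± 10.9 and 34.9 ± 0.0969 CPM per kb in the same groups. In 1027B and in the 3154 group at 48 h, Areg and Erbb3 did not differ beyond their spread. Egfr, the receptor that binds most of these ligands, was low throughout, at 1.33 ± 0.160 CPM per kb in 1027B and 2.12 ± 0.0205 in 3311, below every listed ligand except Epgn. Epgn had 1 to 24 counts in any mouse library. Erbb4, a neuregulin receptor, was not listed in the 3154 and 1027B tables and had 0 counts in both 3311 vehicle libraries, which allows up to 0.111 and 0.119 CPM (3 counts, counting error only). In the human lines the receptor with the lowest CPM was also ERBB4, between 0.314 and 1.96 CPM over all libraries.

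In 1027B and 3311 the order was different with trametinib. With it, Erbb3 became highest in 1027B at 37.1 ± 3.55 CPM per kb, followed by Erbb2 at 20.2 ± 0.00233 and Areg at 14.3 ± 5.03. In 3311, Erbb2 came first at 27.9 ± 0.325, with Erbb3 at 21.3 ± 3.06 and Areg at 17.8 ± 7.13 CPM per kb, and the last pair did not differ beyond their spread. In 3154 with MRTX1133, Areg stayed first, at 108 ± 43.4 CPM per kb with ethanol and 169 ± 24.3 with 4OHT, and Erbb3 was next. With ethanol, Areg and Erbb3 (55.1 ± 21.0) did not differ beyond their spread. With 4OHT, Erbb3 (31.9 ± 5.46) and Hbegf (29.8 ± 0.498) did not either.

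**Figure D1:**
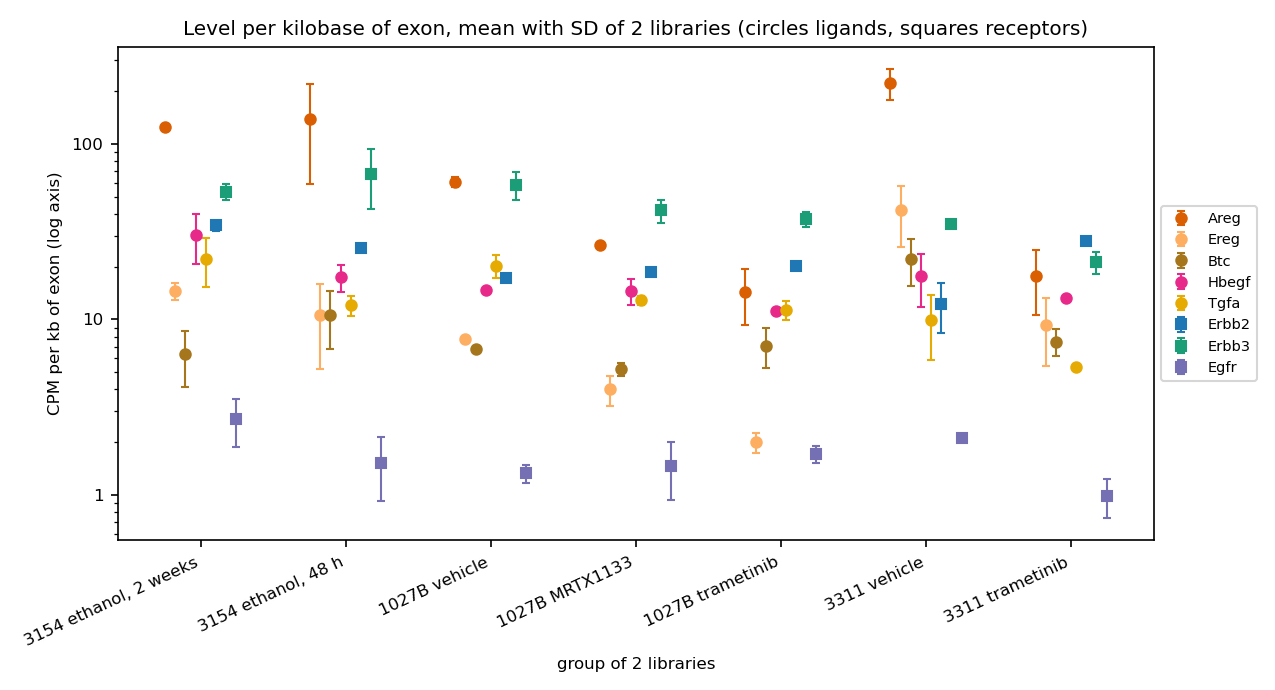
Level of 8 family genes per kilobase of exon (log axis, mean with SD of 2 libraries) in 7 mouse groups. Areg (orange circles) is the top point in each control group, and Erbb3 or Erbb2 (squares) is the top point after MRTX1133 or trametinib in 1027B and 3311.

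Trametinib lowered Areg, Ereg and Tgfa in 3 of the 4 cultures. Btc was called lower only in the 3311 fit, and Hbegf was called in H358 alone, where it rose. A change was called when edgeR's quasi-likelihood test gave an adjusted p (Benjamini-Hochberg over all genes of the table) under 0.05, and each value below is a log2 change against the matching vehicle with its standard error. By that rule 4 of 8 tested members were called in 1027B, where 26.7% of all genes were called. In 3311 it was 7 of 8 against 39% of all genes, in H358 7 of 10 against 46.8%, and in H1651 0 of 10 against 0%. With the replicate number as a block, 1881 genes were called in H1651, among them ERBB2, EREG, HBEGF and EPGN. The labels do not say whether the H1651 libraries are paired. The median change of the tested members was -0.53 in 1027B, -0.99 in 3311, 0.04 in H358 and 0.09 in H1651, and that of all genes was between -0.01 and 0.02 in the 4 tables. For the ligands alone the medians were -0.84, -1.55, -1.43 and -0.29.

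**Figure D2:**
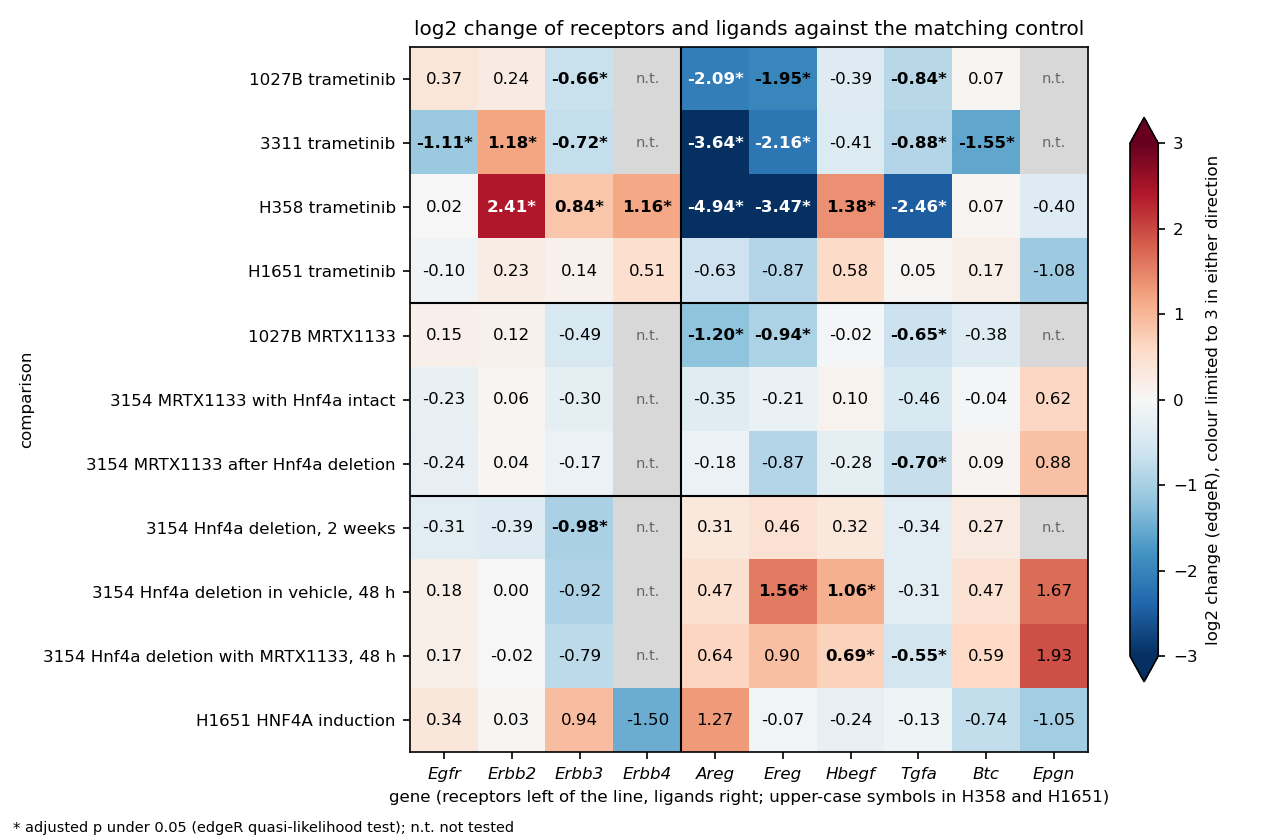
Change of each member against its control in 11 comparisons, as log2 values from edgeR. Asterisks mark adjusted p under 0.05, n.t. marks genes not tested, and horizontal lines separate trametinib, MRTX1133 and HNF4A comparisons. Blue fills the Areg and Ereg columns under trametinib, and Erbb2 is red in 3311 and H358.

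Areg encodes amphiregulin, an EGFR ligand that is itself a known target of ERK signalling. In 1027B it was 70.4 and 77.3 CPM with vehicle and 13.1 and 21.7 CPM with 10 nM trametinib. In 3311 it was 231 and 306 CPM with vehicle and 15.5 and 27.7 CPM with 50 nM, and in H358 398 and 325 CPM against 9.71 and 14.1 CPM with 20 nM. In all 3 cultures every treated library lay below every vehicle library. The log2 changes were -2.09 ± 0.23 (SE, adjusted p = 0.00196), -3.64 ± 0.30 (adjusted p = 0.000544) and -4.94 ± 0.20 (adjusted p = 4.57e-06), or 4.24-, 12.4- and 30.8-fold lower. The doses differed between the mouse cultures and from the human lines, so these sizes stand side by side without a test. H1651 expressed little AREG, 0.968 and 0.903 CPM with vehicle and 0.815 and 0.393 CPM with trametinib, and its change of -0.63 did not pass (adjusted p = 0.999; -1.25 without trametinib replicate 1 and -0.20 without replicate 2). Each of the 3 called falls stayed called whichever library was left out.

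Ereg encodes epiregulin and lies near Areg on chromosome 5. It went from 32.9 and 30.9 CPM to 7.52 and 9.00 CPM in 1027B, from 126 and 218 CPM to 27.1 and 50.0 CPM in 3311, and from 222 and 210 CPM to 18.1 and 20.9 CPM in H358. The groups did not overlap in any of these cultures. Ereg fell by 1.95 ± 0.19 on the log2 scale in 1027B (adjusted p = 0.00136), by 2.16 ± 0.35 in 3311 (adjusted p = 0.00431) and by 3.47 ± 0.12 in H358 (adjusted p = 2.56e-06). In H1651, where EREG had the highest CPM of the 6 ligands with vehicle, the vehicle libraries had 40.2 and 58.3 CPM and both treated libraries 26.9 CPM. There the groups did not overlap either, with a change of -0.87 ± 0.19, but the adjusted p was 0.999. In that table no gene was called by edgeR, 597 had an unadjusted p under 0.05, and DESeq2 called 47, among them EREG (adjusted p = 0.0372). Without replicate 1 of the H1651 vehicle the edgeR change was -1.12 (adjusted p = 0.000833), and without its replicate 2 it was -0.57 (adjusted p = 0.920).

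Tgfa, which encodes another EGFR ligand, fell in the same 3 cultures. Its levels were 118 and 145 CPM with vehicle against 67.2 and 79.7 CPM in 1027B, 45.9 and 82.4 CPM against 33.9 and 36.0 CPM in 3311, and 170 and 163 CPM against 28.2 and 32.3 CPM in H358. All treated libraries were lower than the vehicle libraries of their culture. Tgfa fell by 0.84 ± 0.14 in 1027B (adjusted p = 0.00763), by 0.88 ± 0.26 in 3311 (adjusted p = 0.0353) and by 2.46 ± 0.12 in H358 (adjusted p = 7.32e-06). The 1027B call was lost without trametinib replicate 1 (-0.72, adjusted p = 0.0581), and the 3311 call without vehicle replicate 2 (-0.40, adjusted p = 0.0666). TGFA in H1651 was 5.98 and 4.58 CPM with vehicle and 6.41 and 4.52 CPM with trametinib, overlapping groups.

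Btc encodes betacellulin, a ligand of EGFR and ERBB4, and was called in 1 of the mouse cultures. It went from 78.6 and 120 CPM to 29.7 and 38.0 CPM in 3311, a change of -1.55 ± 0.23 (adjusted p = 0.00321). In 1027B it was 31.5 and 29.8 CPM with vehicle and 37.9 and 26.3 CPM with trametinib, a change of 0.07 with a 95% interval of -0.37 to 0.51 (adjusted p = 0.815). The 2 lines come from separate tables with different doses, and the difference between them was not tested. BTC in H358 was 7.04 and 7.76 CPM against 6.19 and 9.46 CPM, a difference of 0.07 (interval -0.46 to 0.59).

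Hbegf encodes HB-EGF, a ligand of EGFR and ERBB4. HBEGF was 5.21 and 3.76 CPM in H358 with vehicle and 8.44 and 15.2 CPM with trametinib, and it rose by 1.38 ± 0.30 (adjusted p = 0.00612; 0.91 without trametinib replicate 2, adjusted p = 0.00252). In 1027B its values were 70.8 and 71.9 CPM against 55.4 and 53.3 CPM, a change of -0.39 ± 0.13 (adjusted p = 0.0676). In 3311 they were 65.3 and 106 CPM against 63.9 and 65.0 CPM, a change of -0.41 ± 0.22 (adjusted p = 0.183). In both mouse cultures every treated library was below every vehicle library, and in H358 every treated library was above. HBEGF in H1651 was 16.5 and 22.6 CPM with vehicle and 23.3 and 35.2 CPM with trametinib, also higher without overlap. Its change there of 0.58 ± 0.25 did not pass (adjusted p = 0.999). The 1027B replicates behaved as pairs, and with the replicate number as a block the adjusted p was 0.0141 there. Without vehicle replicate 1 the 3311 change was -0.72 (adjusted p = 0.0150), and without vehicle replicate 2 it was -0.022 (adjusted p = 0.900). Epgn had 1 to 5 counts in the 1027B and 3311 vehicle and trametinib libraries and was not tested, and EPGN in H358 (9 to 17 counts) changed by -0.40 (adjusted p = 0.428).

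**Figure D3:**
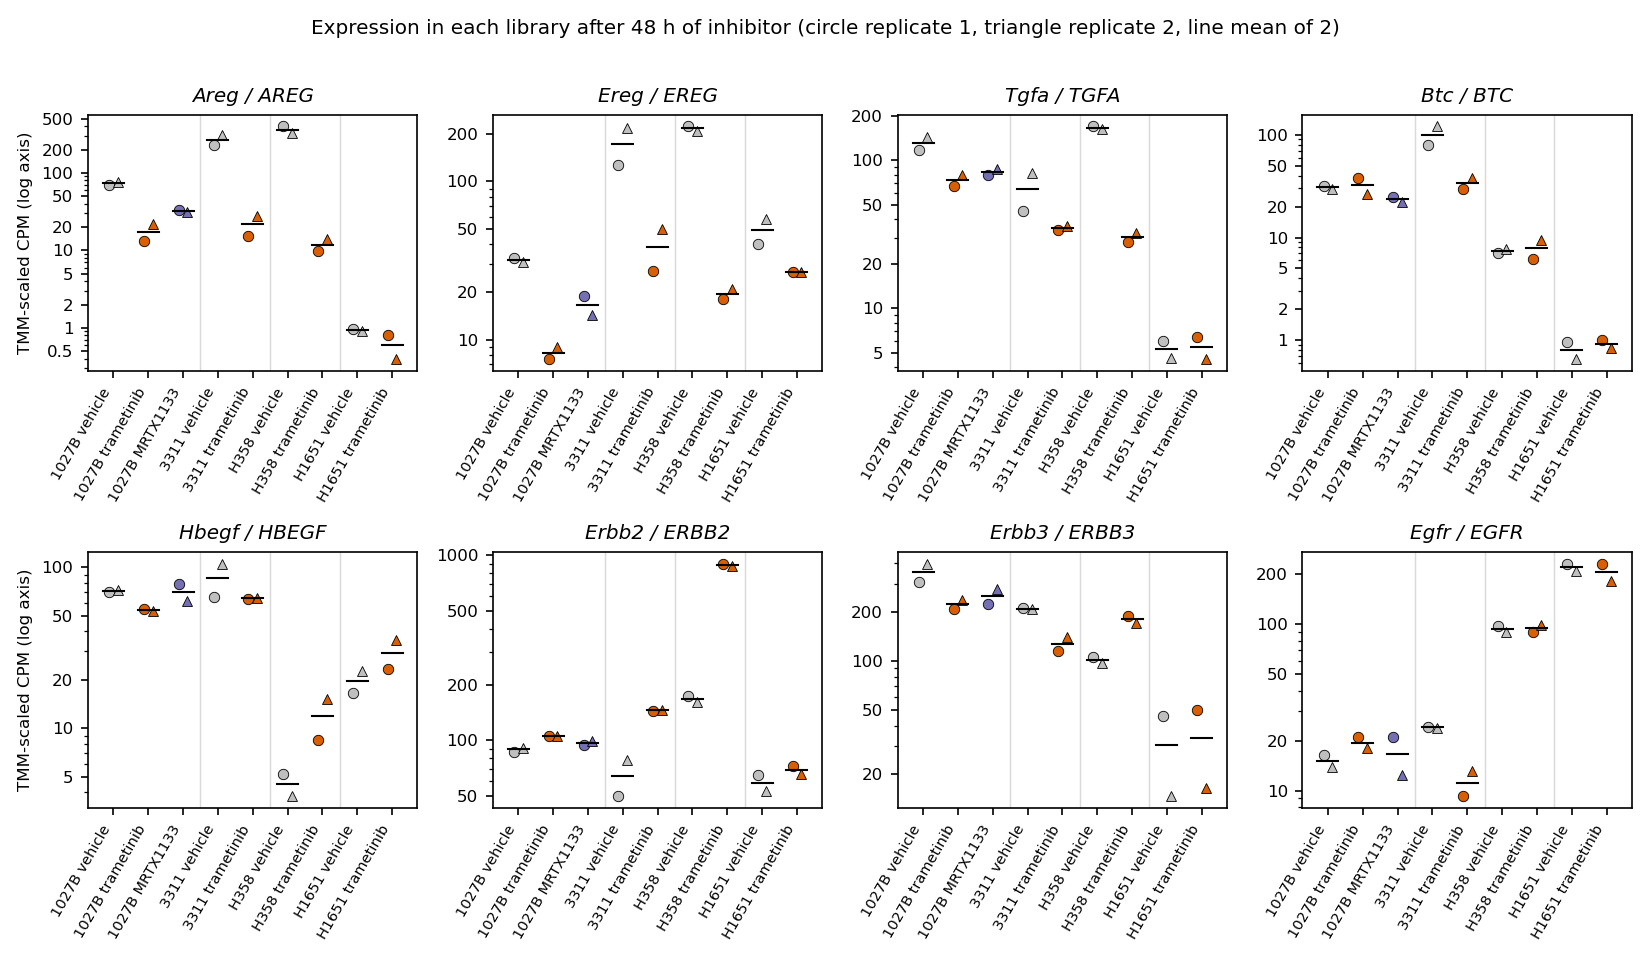
TMM-scaled CPM (log axis) of 8 genes in every library of the inhibitor experiments, vehicle in grey, trametinib in orange and MRTX1133 in purple, with a line at the mean of 2. Areg drops from 231 to 398 CPM with vehicle to 9.71 to 27.7 CPM with trametinib in 3311 and H358, and ERBB2 in H358 is 902 and 871 CPM with trametinib.

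Among the receptors, trametinib raised Erbb2 in 2 cultures and lowered Erbb3 in the 2 mouse cultures and raised it in H358, a contrast that was not tested. ERBB2, the receptor without a known ligand, was 173 and 162 CPM in H358 with vehicle and 902 and 871 CPM with trametinib. In 3311, Erbb2 was 49.8 and 78.3 CPM with vehicle and 144 and 147 CPM with trametinib. It rose 5.30-fold in H358 (log2 change 2.41 ± 0.10, adjusted p = 5.73e-06) and 2.27-fold in 3311 (1.18 ± 0.22, adjusted p = 0.00643), with no overlap between groups. In 1027B, Erbb2 was 87.0 and 91.5 CPM against 105 and 105 CPM, a change of 0.24 ± 0.09 (adjusted p = 0.100; 0.0255 with the replicate block). In H1651 it was 65.1 and 53.0 CPM against 72.7 and 65.9 CPM, a change of 0.23 with an interval of -0.11 to 0.56 (adjusted p = 0.999). The replicate block called ERBB2 there. The rises in H358 and 3311 stayed called in every fit that left out 1 library.

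Erbb3 encodes the neuregulin receptor that pairs with ERBB2. It was 306 and 399 CPM in 1027B with vehicle and 208 and 239 CPM with trametinib, and in 3311 211 and 210 CPM against 115 and 141 CPM. In H358, ERBB3 was 105 and 97.1 CPM with vehicle and 190 and 171 CPM with trametinib. The mouse treated libraries thus lay below their vehicle libraries and the H358 ones above. Erbb3 fell by 0.66 ± 0.17 in 1027B (adjusted p = 0.0294) and by 0.72 ± 0.15 in 3311 (adjusted p = 0.0102), and ERBB3 rose by 0.84 ± 0.11 in H358 (adjusted p = 0.000527). The 1027B call was lost without vehicle replicate 2 (-0.43, adjusted p = 0.147), trametinib replicate 1 (-0.56, adjusted p = 0.164) or trametinib replicate 2 (-0.76, adjusted p = 0.0616), and the 3311 call without trametinib replicate 1 (-0.58, adjusted p = 0.0874). In H1651 it was 45.7 and 14.6 CPM with vehicle and 50.2 and 16.5 CPM with trametinib, overlapping groups, and the change of 0.14 had an interval of -1.66 to 1.94.

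Egfr, which binds all 6 ligands, was called under trametinib in 3311 alone. In 3311 it was 24.2 and 23.9 CPM with vehicle and 9.25 and 13.1 CPM with trametinib, and it fell by 1.11 ± 0.22 (adjusted p = 0.00888). In 1027B it was 16.4 and 13.8 CPM against 21.0 and 18.0 CPM, a change of 0.37 ± 0.26 that did not pass (adjusted p = 0.332). EGFR in H358 was 97.4 and 89.5 CPM against 90.2 and 99.3 CPM, a change of 0.02 with an interval of -0.23 to 0.27. In H1651 it was 232 and 209 CPM against 230 and 184 CPM, a change of -0.10 (interval -0.45 to 0.26). ERBB4 in H358 had 39 and 24 counts with vehicle and 90 and 50 counts with trametinib, and it rose from 0.863 ± 0.208 to 1.95 ± 0.0204 CPM (1.16 ± 0.30, adjusted p = 0.0131), a call lost without vehicle replicate 2 (0.93, adjusted p = 0.0861). Beside these H358 changes, 5 of 6 fibroblast markers were higher in both treated libraries than in both vehicle libraries, and their sum was 40.8 to 49.6 CPM with vehicle and 246 to 348 CPM with trametinib. COL1A2 and DCN were at 0 with vehicle, and 4 of 5 epithelial markers were lower while CDH1 was higher, at 432 and 465 CPM against 833 and 1028 CPM. NKX2-1, CDH5 and PTPRC were higher too and PECAM1 was lower, and the part of these shifts in the ERBB changes was not tested. Beside the 1027B changes, 4 of 5 epithelial markers were lower and 1 higher with trametinib, with sums of 9027 to 9170 CPM with vehicle and 7418 to 8260 CPM with trametinib, and both immune markers were lower, with sums of 7.42 to 7.80 and 4.15 to 4.23 CPM. The lung marker Nkx2-1 was higher, at 312 to 316 CPM with vehicle and 413 to 431 CPM with trametinib. Of 2 fibroblast markers 1 was higher, with sums of 0.533 to 0.921 CPM and 1.03 to 1.69 CPM. In 3311, 1 of 5 epithelial markers was lower and 1 higher, with overlapping sums, and the immune sum was 4.06 to 4.87 CPM with vehicle and 0.951 to 1.54 CPM with trametinib. Of the 2 immune markers, 1 was lower and the other was at 0 with vehicle. Of 4 fibroblast markers 1 was higher and 1 lower, with sums of 14.9 to 15.8 CPM with vehicle and 11.4 to 14.4 CPM with trametinib. The 1 endothelial marker listed was lower. The part of these shifts was not tested either.

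The family's partners were described with a list of 33 genes: other ligands, shedding factors, inhibitors of the receptors, adaptors and transcriptional targets of ERK. With trametinib 19 of 30 tested genes were called in 1027B (5 higher, 14 lower), 19 of 31 in 3311 (5 higher, 14 lower) and 21 of 30 in H358 (7 higher, 14 lower), beside the 26.7%, 39% and 46.8% of all genes. All 9 ERK targets were lower in each of these, with median changes of -2.80, -3.03 and -4.16. Fosl1, an AP-1 subunit, had a log2 change of -4.34 in 1027B (adjusted p = 0.000469), Etv4, an ETS factor, -6.31 in 3311 (adjusted p = 0.000220), and DUSP6, an ERK phosphatase, -7.59 in H358 (adjusted p = 1.40e-06). In H1651, 0 of 32 were called, but 11 had an unadjusted p under 0.05, including all 9 ERK targets, whose median was -2.03. The H1651 count was 8 without vehicle replicate 1, 2 without vehicle replicate 2 and 1 without trametinib replicate 2, and the 1027B count was 12 without trametinib replicate 1.

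Errfi1, whose product (MIG6) binds and blocks ERBB kinases, fell by 1.20 ± 0.11 in 1027B (adjusted p = 0.00107) and ERRFI1 by 1.01 ± 0.10 in H358 (adjusted p = 0.000163). The gene of the shedding protease, Adam17, rose by 0.60 ± 0.09 in 1027B (adjusted p = 0.00549) and by 0.48 ± 0.14 in 3311 (adjusted p = 0.0301). In H358 it rose by 0.59 ± 0.11 (adjusted p = 0.00287), a value named after it was seen. Egf, the founding ligand of the family, rose in 1027B from 1.23 ± 0.0249 to 2.84 ± 0.454 CPM (adjusted p = 0.0298) and in 3311 from 6.96 ± 0.555 to 37.2 ± 21.0 CPM (adjusted p = 0.00410). In H358, EGF fell from 12.1 ± 2.52 to 3.69 ± 0.222 CPM (adjusted p = 0.000383). The docking protein gene Gab1 rose by 1.03 ± 0.20 in 1027B (adjusted p = 0.0121) and GAB1 by 0.99 ± 0.14 in H358 (adjusted p = 0.000911). The exchange factor gene Sos2 fell by 0.56 ± 0.16 in 1027B (adjusted p = 0.0458) and by 0.83 ± 0.13 in 3311 (adjusted p = 0.00423), whereas SOS2 rose by 0.84 ± 0.12 in H358 (adjusted p = 0.000809). Lrig3, of a family whose founder LRIG1 is a negative regulator of ERBB receptors, fell by 0.72 ± 0.13 in 1027B (adjusted p = 0.0106), a value named after it was seen. It rose by 2.06 ± 0.41 in 3311 (adjusted p = 0.00857) and by 0.89 ± 0.13 in H358 (adjusted p = 0.00117). Some of these calls rested on single libraries. In 1027B that of Egf was lost in all 4 fits that left out 1 library (1.03 to 1.36, adjusted p from 0.0556 to 0.159). That of Sos2 was lost without vehicle replicate 2 (-0.36, adjusted p = 0.228) or either trametinib library (adjusted p = 0.233 and 0.0667), and those of Gab1 (0.96, adjusted p = 0.0707) and Lrig3 (-0.57, adjusted p = 0.0674) without trametinib replicate 1. In 3311 that of Adam17 was lost without vehicle replicate 2 or either trametinib library (0.39 to 0.56, adjusted p from 0.0649 to 0.266).

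MRTX1133 lowered Areg, Ereg and Tgfa in 1027B. With 20 nM, 3 of 8 tested members were called, all lower, where 6.27% of all genes were called and the median change was -0.43 for the members and 0.01 for all genes. Areg was 32.9 and 31.6 CPM, Ereg 18.9 and 14.3 CPM, and Tgfa 80.0 and 87.0 CPM, all below both vehicle libraries. Areg fell by 1.20 ± 0.22 (adjusted p = 0.0298), Ereg by 0.94 ± 0.18 (adjusted p = 0.0328) and Tgfa by 0.65 ± 0.14 (adjusted p = 0.0451). Each of these calls was lost in all 4 fits that left out 1 library, with adjusted p from 0.0880 to 0.124 for Areg, from 0.0668 to 0.133 for Ereg and from 0.0687 to 0.223 for Tgfa. The log2 changes in these fits were -1.26 to -1.11 for Areg, -1.15 to -0.74 for Ereg and -0.80 to -0.47 for Tgfa, and 138 to 349 genes were called in all, against 913 with every library. Erbb3 was 225 and 277 CPM, below both vehicle libraries, a change of -0.49 ± 0.17 (adjusted p = 0.143; 0.00207 with the replicate block), which was -0.27 without vehicle replicate 2. Erbb2 was 94.2 and 99.4 CPM (0.12 ± 0.09), and Egfr, Hbegf and Btc did not pass either. Of the 33 partner genes 7 of 30 tested were called, all lower, with Fosl1 (-2.07 ± 0.23, adjusted p = 0.00840) and Errfi1 (-1.04 ± 0.11, adjusted p = 0.00678) among them. That partner count was 2 or 3 in every fit that left out 1 library. With MRTX1133, 3 of 5 epithelial markers were lower and 1 higher than with vehicle, with a sum of 7992 to 8126 CPM, and both immune markers were lower, with a sum of 4.74 to 4.87 CPM. Nkx2-1 was higher, at 312 to 316 CPM with vehicle and 375 to 384 CPM with MRTX1133. Of 2 fibroblast markers 1 was higher, with sums of 0.533 to 0.921 CPM and 1.11 to 1.69 CPM. The part of these marker shifts in the changes was not tested.

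The 2 inhibitors of 1027B share their vehicle libraries, so they were also compared with each other, at the doses given. Areg was higher with MRTX1133 than with trametinib in both libraries, by 0.89 ± 0.22 on the log2 scale (interval 0.36 to 1.42), and Ereg by 1.01 ± 0.19 (interval 0.57 to 1.45). Hbegf differed by 0.37 ± 0.13 and Tgfa by 0.18 ± 0.14. Btc ran the other way, at 25.0 and 22.2 CPM with MRTX1133 against 37.9 and 26.3 CPM, a difference of -0.45 ± 0.19 (interval -0.89 to -0.0015, adjusted p = 0.307). No gene was called in this comparison (0% of 14555), 2357 had an unadjusted p under 0.05, and the adjusted p was 0.153 for Areg, 0.107 for Ereg and 0.247 for Hbegf. With the replicate block, 2050 genes were called and the 3 ligands had adjusted p of 0.0115, 0.00784 and 0.0493. DESeq2 called 675 genes, with 0.0149 for Areg and 0.00110 for Ereg. Receptor differences between the inhibitors were -0.22 for Egfr (interval -0.83 to 0.39), -0.12 for Erbb2 (-0.33 to 0.10) and 0.17 for Erbb3 (-0.23 to 0.57). Of the partner genes 0 of 30 tested were called, but 12 had an unadjusted p under 0.05, including all 9 ERK targets. Each ERK target was higher with MRTX1133 than with trametinib, without overlap. Their median difference was larger than those of Areg and Ereg. The part of this shift in the ligand differences was not tested.

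In 3154 organoids 3 nM MRTX1133 gave 1 called member in all, Tgfa after deletion. With Hnf4a intact, 0 of 9 tested members were called, against 0.349% of all genes, and 1 had an unadjusted p under 0.05. That gene was Tgfa, named after its value was seen, with 85.3 and 71.1 CPM in vehicle and 62.6 and 50.9 CPM with the inhibitor, a change of -0.46 ± 0.15 (adjusted p = 0.304). After Hnf4a deletion, Tgfa was 65.5 and 60.9 CPM in vehicle and 37.5 and 40.3 CPM with MRTX1133. It fell by 0.70 ± 0.16 (adjusted p = 0.0464) and was the only member called, where 4.64% of all genes were. The call was lost without either library of either group, with log2 changes of -0.75 to -0.65, adjusted p from 0.192 to 0.376 and 0 to 23 genes called in all against 717, and with RLE scaling (adjusted p = 0.0520). Beside it, 3 of 5 epithelial markers and 1 of 2 immune markers were lower with MRTX1133 and Nkx2-1 was higher, with epithelial sums of 7854 to 8214 CPM against 6795 to 7293 CPM, and their part was not tested. Ereg was 120 and 137 CPM against 68.1 and 72.7 CPM, without overlap, but its change of -0.87 ± 0.38 did not pass (adjusted p = 0.251). Of the partner genes, MRTX1133 gave 0 called of 31 tested with Hnf4a intact and 4 of 31 after deletion, all lower. The median change of the 9 ERK targets was -0.38 with Hnf4a intact and -0.53 after deletion. The direct test of whether MRTX1133 acted differently after deletion called 0% of 15458 genes (1150 at an unadjusted p under 0.05, and 30 by DESeq2). The members' interaction values ran from -0.66 ± 0.54 for Ereg to 0.26 ± 1.09 for Epgn, with adjusted p of at least 0.832, and the Ereg value ran from -1.29 to -0.075 over the fits that left out 1 library.

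Removal of Hnf4a was followed by lower Erbb3 at 2 weeks. In the 48 h experiment it was followed by higher Hbegf and Ereg in vehicle, and by higher Hbegf and lower Tgfa with MRTX1133. At 2 weeks 1 of 8 tested members was called, where 9.81% of all genes were, and in the 48 h experiment 2 of 9 in vehicle and 2 of 9 with MRTX1133, below the 31% and 27.7% of all genes. Erbb3 was 298 and 344 CPM with ethanol and 140 and 184 CPM with 4OHT, groups without overlap. It fell by 0.98 ± 0.17 (1.98-fold lower, adjusted p = 0.0274), a call lost without 4OHT replicate 1 (-0.80, adjusted p = 0.121). Erbb2 was 170 and 187 CPM against 143 and 129 CPM, a change of -0.39 ± 0.13 that did not pass (adjusted p = 0.111). The groups of the 5 tested ligands overlapped. Areg was 150 and 152 CPM with ethanol but 125 and 248 CPM with 4OHT, and its change of 0.31 had an interval of -0.46 to 1.07. Epgn had 3 and 2 counts with ethanol and 8 and 6 counts with 4OHT, groups without overlap, and was not tested. Beside these values, 1 of 5 epithelial markers was higher with 4OHT, with overlapping sums, and 1 of 2 immune markers was higher. The fibroblast sum was 0.0898 to 0.264 CPM with ethanol and 0.412 to 0.853 CPM with 4OHT, and of the endothelial markers Pecam1 was lower, at 5.93 and 5.03 CPM against 2.04 and 2.21 CPM, and Cdh5 higher, at 0 and 1 counts against 4 and 8 counts.

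In the 48 h experiment the deletion was read with vehicle and with MRTX1133, and Hbegf rose in both. It was 73.3 and 94.3 CPM with ethanol and 170 and 179 CPM with 4OHT in vehicle, and 78.5 and 101 CPM against 142 and 146 CPM with MRTX1133. The 4OHT libraries were above all ethanol libraries in either medium. Hbegf rose by 1.06 ± 0.17 in vehicle (adjusted p = 0.00338) and by 0.69 ± 0.17 with MRTX1133 (adjusted p = 0.0197). The first call held in every fit that left out 1 library. The second was lost without 4OHT replicate 1 (0.70, adjusted p = 0.0936), 4OHT replicate 2 (0.67, adjusted p = 0.105) or ethanol replicate 1 (0.53, adjusted p = 0.0972). With 4OHT in vehicle, 2 of 5 epithelial markers were higher and 2 lower, and 1 immune marker was higher and 1 lower. With MRTX1133, 2 epithelial markers were higher and 1 lower, 1 immune marker was higher and the lung marker Nkx2-1 was lower. The fibroblast sum was higher with 4OHT in both media but at most 0.493 CPM. The part of these marker shifts in the changes after deletion was not tested.

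Ereg rose in vehicle, from 28.1 and 59.2 CPM to 120 and 137 CPM (1.56 ± 0.39, adjusted p = 0.0191), a call lost without 4OHT replicate 1 (1.65, adjusted p = 0.0654) or replicate 2 (1.45, adjusted p = 0.0962). With MRTX1133 it was 25.2 and 50.5 CPM against 68.1 and 72.7 CPM (0.90 ± 0.38, adjusted p = 0.120), and the change was 0.49 without ethanol replicate 1 and 1.48 without ethanol replicate 2 (adjusted p = 0.425 and 0.0515). The 2 ethanol libraries in vehicle stood far apart, and among the members this was widest for Areg. It was 100 and 236 CPM with ethanol and 220 and 247 CPM with 4OHT, overlapping groups with a change of 0.47 ± 0.39 (adjusted p = 0.396). Without ethanol replicate 2 the Areg change in vehicle was 1.22, and without ethanol replicate 1 it was -0.02. With MRTX1133 Areg was 94.4 and 169 CPM with ethanol and 227 and 185 CPM with 4OHT, without overlap. That change of 0.64 ± 0.39 did not pass (adjusted p = 0.260), and it ran from 0.29 to 1.12 over the fits that left out 1 library.

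Erbb3 was 514 and 300 CPM with ethanol and 229 and 202 CPM with 4OHT in vehicle, and 421 and 242 CPM against 169 and 215 CPM with MRTX1133. All 4OHT libraries were lower than the ethanol libraries, but neither change passed, at -0.92 ± 0.31 (adjusted p = 0.0585) and -0.79 ± 0.31 (adjusted p = 0.0977). DESeq2 called the first (adjusted p = 0.0184). Each passed without replicate 2 of its ethanol group, at -1.26 (adjusted p = 0.00932) and -1.14 (adjusted p = 0.0461). Without replicate 1 of its ethanol group each was smaller, at -0.48 (adjusted p = 0.237) and -0.33 (adjusted p = 0.522). Tgfa fell with deletion under MRTX1133, from 62.6 and 50.9 CPM to 37.5 and 40.3 CPM (-0.55 ± 0.15, adjusted p = 0.0339). That call was lost without 4OHT replicate 1 (-0.50, adjusted p = 0.187), 4OHT replicate 2 (-0.60, adjusted p = 0.124) or ethanol replicate 1 (-0.38, adjusted p = 0.187). Btc was 35.7 and 60.3 CPM with ethanol and 61.9 and 70.7 CPM with 4OHT in vehicle, and 38.9 and 54.5 CPM against 72.9 and 67.9 CPM with MRTX1133. Its groups did not overlap, but the changes of 0.47 ± 0.26 (adjusted p = 0.202) and 0.59 ± 0.26 (adjusted p = 0.123) did not pass. In vehicle the Btc change was 0.89 without ethanol replicate 2 (adjusted p = 0.0129) and 0.13 without ethanol replicate 1 (adjusted p = 0.663). Egfr was 22.2 and 12.5 CPM against 19.8 and 19.6 CPM in vehicle and 16.7 and 13.1 CPM against 15.5 and 17.9 CPM with MRTX1133, overlapping groups with changes of 0.18 and 0.17 (adjusted p = 0.622 and 0.662). Without ethanol replicate 1 the Egfr change in vehicle was 0.65 (adjusted p = 0.0391). Erbb2 did not change detectably in either medium, at 0.00 (interval -0.31 to 0.31) and -0.02 (interval -0.33 to 0.29). Epgn had 3 and 3 counts with ethanol and 10 and 10 with 4OHT in vehicle (adjusted p = 0.141), and 1 and 9 against 17 and 24 with MRTX1133 (adjusted p = 0.0582). Members' median changes were 0.47 and 0.59 against 0.01 and -0.01 for all genes.

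**Figure D4:**
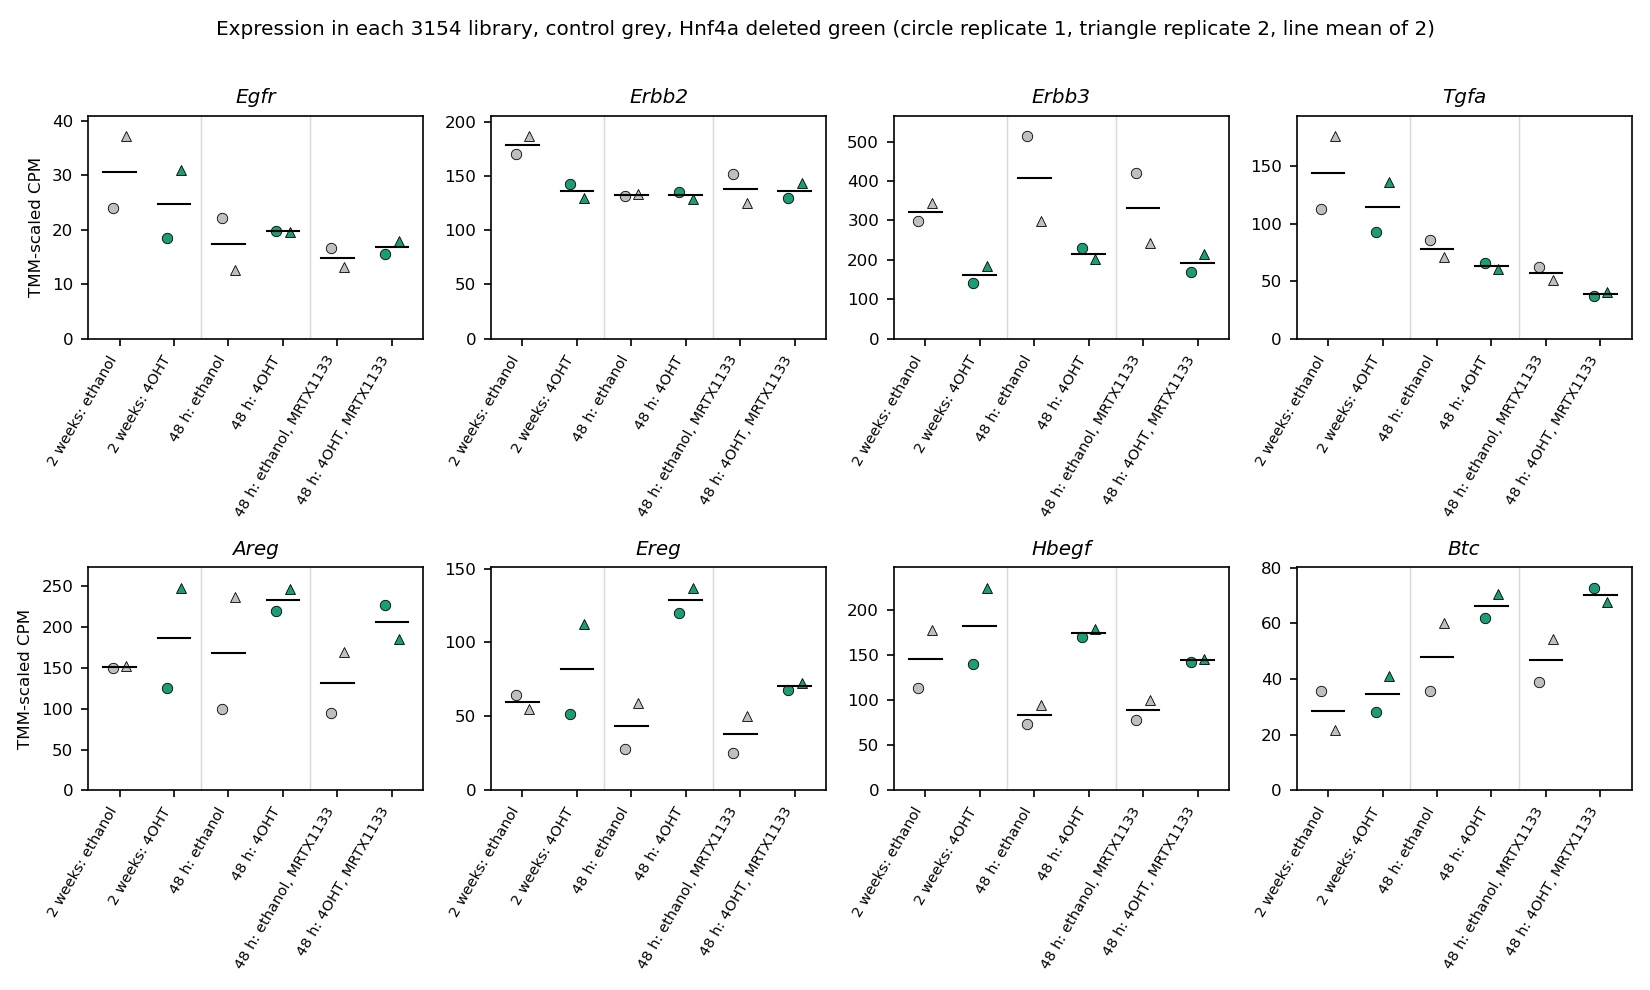
TMM-scaled CPM of 8 genes in every 3154 library, ethanol in grey and 4OHT in green, with a line at the mean of 2. Hbegf is above 140 CPM in all 48 h 4OHT libraries and below 101 CPM in the 48 h ethanol libraries, Erbb3 is lower with 4OHT in all 3 pairs of groups, and the ethanol replicates of Areg at 48 h lie apart at 100 and 236 CPM.

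Of the partner genes, 12 of 31 tested were called with deletion in vehicle (5 higher, 7 lower), 8 of 31 with MRTX1133 (4 higher, 4 lower) and 2 of 30 at 2 weeks, both higher, beside 31%, 27.7% and 9.81% of all genes. Lrig1, whose product lowers ERBB receptor levels, fell by 1.71 ± 0.38 in vehicle (adjusted p = 0.0124), from 133 and 54 CPM to 29.5 and 27.6 CPM. Without the higher ethanol library, replicate 1, the fall was 0.92 (adjusted p = 0.0159), and the call was lost without either 4OHT library (adjusted p = 0.0736 and 0.0877). With MRTX1133 it fell by 1.20 ± 0.38 (adjusted p = 0.0488), a call lost in all 4 fits that left out 1 library (-1.45 to -0.89, adjusted p from 0.0643 to 0.230). Nrg1, a neuregulin gene, was 1.87 ± 0.271 CPM with ethanol and 3.94 ± 0.706 CPM with 4OHT in vehicle, a rise (adjusted p = 0.0149), and it also rose from 1.86 ± 0.241 to 5.03 ± 0.690 CPM with MRTX1133 (adjusted p = 0.00484). Another neuregulin gene, Nrg4, ran the other way and was called lower in vehicle, but was not called with MRTX1133. Its log2 change in vehicle was -2.57 to -1.55 over the fits that left out 1 library. Rhbdf1, which encodes an inactive rhomboid that acts with ADAM17, rose by 0.48 ± 0.14 (adjusted p = 0.0315) and by 0.72 ± 0.14 (adjusted p = 0.00703). The Nrg1 call in vehicle was lost without 4OHT replicate 1 (0.87, adjusted p = 0.117), and that of Rhbdf1 without either 4OHT library or ethanol replicate 2 (adjusted p from 0.0743 to 0.190). With MRTX1133 the Rhbdf1 call was lost without 4OHT replicate 1 (0.70, adjusted p = 0.0590). In the 48 h experiment, 3 of 9 ERK targets were called in vehicle (1 higher, 2 lower) and 2 of 9 with MRTX1133, both lower. The median changes of the ERK targets were 0.03 and -0.11. The called genes at 2 weeks, both ERK targets, were Fosl1 (1.65 ± 0.37, adjusted p = 0.0495) and Etv4 (0.66 ± 0.13, adjusted p = 0.0374). The Fosl1 call was lost without 4OHT replicate 2 (1.10, adjusted p = 0.155), and that of Etv4 without ethanol replicate 2 or either 4OHT library (0.58 to 0.70, adjusted p from 0.0888 to 0.218). The partner count in vehicle was 0 without 4OHT replicate 1 and 1 without 4OHT replicate 2. With MRTX1133 it was 2 and 3 without the same replicates of its 4OHT group, and 5 and 4 without ethanol replicate 1 and 2. At 2 weeks it was 1 and 0 without 4OHT replicate 1 and 2. The members' count in vehicle was 5 without ethanol replicate 2.

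Induction of HNF4A in H1651 gave 0 called members of 10 tested, where 1.42% of all genes were called and 4 members had an unadjusted p under 0.05. DESeq2 called none of the 10 either. ERBB3 was 66.2 and 47.2 CPM without doxycycline and 125 and 91.5 CPM with it, without overlap, a change of 0.94 ± 0.19 (adjusted p = 0.0762). It passed with no count filter (adjusted p = 0.0486). It also passed without doxycycline replicate 2 (1.14, adjusted p = 0.00226), control replicate 1 (1.20, adjusted p = 0.000860) or control replicate 2 (0.71, adjusted p = 0.0418), but not without doxycycline replicate 1 (0.69, adjusted p = 0.0770). AREG was 1.20 and 1.22 CPM against 2.95 and 2.91 CPM, a change of 1.27 ± 0.25 (adjusted p = 0.0703). ERBB4 had 33 and 33 counts without and 8 and 14 counts with doxycycline, a change of -1.50 ± 0.43 (adjusted p = 0.183). EPGN was 1.77 and 3.09 CPM against 1.45 and 0.883 CPM, without overlap, a change of -1.05 ± 0.39 (adjusted p = 0.317; -0.59 without control replicate 2). Beside these values, all 5 epithelial markers were higher and 5 of 6 fibroblast markers lower with doxycycline, with fibroblast sums of 643 to 725 CPM without and 407 to 445 CPM with it, and their part in the ERBB values was not tested. Of the partner genes 1 of 32 tested was called, DUSP6, higher by 0.54 ± 0.09 (adjusted p = 0.0449), a call lost in 3 of the 4 fits that left out 1 library (adjusted p from 0.0529 to 0.0616). That count was 2 without doxycycline replicate 1 and 0 without control replicate 2.

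Across the 22 mouse libraries, with each table centred on its own mean, the genes whose log2 CPM was most like that of Areg among 12597 genes were Bok, an apoptosis regulator (Pearson r = 0.956), Oit1 (0.948) and Egr1, an immediate early transcription factor (0.942). Within the family, Areg was closest to Ereg (0.90) and Btc (0.75) and ran against Erbb2 (-0.79). The genes most like Erbb3 were Fam210a (0.963), Ell, an elongation factor (0.961), and Cmip (0.959), and its nearest member was Tgfa (0.76). These values are descriptions over libraries that share treatments and cultures, and carry no test.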

How the data were processed

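RNA was sequenced from poly(A)-selected, directional, paired-end libraries, 34 in 17 groups of 2. The authors deposited 7 tables of raw counts per gene, and the submitters' processing notes list cutadapt 3.5, STAR 2.7.6a and featureCounts 1.6.3. The notes list 2 mouse builds without saying which table used which, so gene lengths and coordinates come from GENCODE M21 and serve as description.

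From the counts, each table was fitted separately with edgeR 4.0.16 (R 4.3.3): filterByExpr, TMM scaling, the quasi-likelihood F-test, and Benjamini-Hochberg adjustment over all genes of the table, with 0.05 as threshold. All groups of a table shared 1 estimate of spread. The SE is the log2 change divided by the square root of F, and intervals are 95%. CPM are TMM-scaled. With 2 libraries a group no exact permutation test can reach 0.05, and depth intervals cover counting error only.

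The 10 members and the partner and marker lists were chosen with earlier results of these data known. Of the partner genes, up to 2 called genes per role and comparison with the largest absolute log2 change could be named, and other names are marked as chosen after their values were seen. The genes most like Areg and Erbb3 were the 3 with the highest Pearson r. Alternatives were DESeq2 1.42.0, RLE scaling, no count filter, at least 10 counts in every library, only the groups compared, a replicate block, and leaving out each library in turn, where a lone library is assumed to vary like the other groups. Replicate numbers were taken to pair the 1027B libraries, because same-numbered libraries deviated together in all 3 pairs of groups (r = 0.243, 0.372 and 0.414), a hint from the data and not a statement of the labels. An allele that the mouse cultures share is not reported here.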

Additional observations from a re-analysis of the deposited data

Results flagged for a closer look

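Among the members and the partner genes named for trametinib, 6 had every treated library on one side of the vehicle libraries in some cultures and on the other side elsewhere. The differences between cultures were not tested, and doses were 10 nM in 1027B, 50 nM in 3311 and 20 nM in H358 and H1651. Egfr had a log2 change of 0.37 in 1027B and -1.11 in 3311. ERBB3 had 0.84 in H358, against -0.66 in 1027B and -0.72 in 3311. HBEGF had 1.38 in H358 and 0.58 in H1651, against -0.39 in 1027B and -0.41 in 3311. Among the partner genes, Egf had 1.21 in 1027B and 2.42 in 3311, against -1.70 in H358. Lrig3 had 2.06 in 3311 and 0.89 in H358, against -0.72 in 1027B. SOS2 had 0.84 in H358, against -0.56 in 1027B and -0.83 in 3311. A further 8 partner genes did so too (Nrg1, Nrg4, Adam10, Rhbdf1, Rhbdf2, Rnf41, Grb2 and Ptpn11), among them Ptpn11, called both ways, with 0.49 in 3311 (edgeR, adjusted p = 0.0216) and -0.46 in H358 (adjusted p = 0.0139). These 8 are named after their values were seen.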

How the results depend on the processing

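Of 115 tested member changes 27 were called. All 27 kept their direction in every fit, 25 also kept the call in every alternative that used all libraries of the groups compared, and 14 kept it whichever library was left out. Of the 88 not called, 40 changed sign in some fit. Of 93 called changes of partner genes, 93 kept their direction, 75 kept the call in every alternative that used all libraries and 48 whichever library was left out. With 2 libraries a group, single libraries limit these results more than depth does, and the cause of each change was not tested.

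Counts of called members moved by over 1.5 times as follows. For MRTX1133 against trametinib in 1027B the count was 0, against 2 by DESeq2 and 3 with the replicate block. For deletion with MRTX1133 it was 2, against 4 with only the 2 groups and 4 with the block. For deletion at 2 weeks it was 1, against 4 with the block. For MRTX1133 after deletion it was 1, against 3 with only the 2 groups and 0 with RLE scaling. For HNF4A induction it was 0, against 1 without a filter and 5 with the block, and for trametinib in H1651 0, against 1 by DESeq2 and 4 with the block. Smaller moves in 1027B were 6 with the block against 4 for trametinib, and 4 with the block and 2 with only the 2 groups against 3 for MRTX1133. Leaving out 1 library gave 0 to 0 in 1027B with MRTX1133, 2 to 4 in 1027B and 6 to 8 in 3311 with trametinib, 6 to 7 in H358, 0 to 1 in H1651, 1 to 5 for deletion in vehicle, 0 to 4 with MRTX1133, 0 to 1 at 2 weeks, 0 to 0 for MRTX1133 after deletion and 0 to 2 for HNF4A induction.

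In the labels the replicates of every culture share only a number, 1027B included. Outside 1027B the correlations of replicate differences were -0.251 to 0.549 in the 3154 experiment at 48 h. They were 0.427 for 3154 at 2 weeks, 0.126 in 3311, 0.318 in H358, and 0.623 with trametinib and 0.318 with induction in H1651. The 0.623 was above every 1027B value, but that experiment compares only vehicle with trametinib. Outside 1027B the block called Erbb2 (adjusted p = 0.0312), Hbegf (0.0375) and Tgfa (0.0351) at 2 weeks by edgeR. In H1651 it called ERBB2, EREG, HBEGF and EPGN with trametinib, and EGFR, ERBB3, ERBB4, AREG and EPGN with induction. Tgfa with MRTX1133 in 1027B had an adjusted p of 0.0600 with only the 2 groups.

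All-gene counts moved over 1.5 times. By DESeq2 they were 1593 against 913 for MRTX1133 in 1027B, 675 against 0 for the 2 inhibitors, 2336 against 1421 at 2 weeks, 30 against 0 for the interaction, 1291 against 717 after deletion, 319 against 54 with Hnf4a intact, 441 against 247 for induction and 47 against 0 in H1651 with trametinib. With the block they were 3515, 2050 and 6540 (against 3880) in 1027B, 4563 at 2 weeks, 3048 for induction and 1881 in H1651 with trametinib. With only the 2 groups they were 3154 against 4795 for deletion in vehicle, 3932 after deletion, 0 with Hnf4a intact and 1 for the 2 inhibitors, and without a filter 2 in H1651 with trametinib. Leaving out 1 library gave 1336 to 2754 for trametinib, 138 to 349 for MRTX1133 and 0 to 2 for the 2 inhibitors in 1027B, 3772 to 6298 (against 5938) in 3311, 0 to 193 in H1651 with trametinib, 232 to 412 for induction, 395 to 2790 at 2 weeks, 1668 to 5964 for deletion in vehicle, 1745 to 2805 (against 4279) with MRTX1133, 0 to 23 for MRTX1133 after deletion and 0 to 309 with Hnf4a intact.

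Changes of sign were near 0 with all libraries. The Egfr interaction was 0.012 by DESeq2 and 0.015 with RLE. Erbb2 was -0.013 by DESeq2, -0.0076 without a filter, -0.0039 with only the 2 groups and -0.0097 with RLE for deletion in vehicle, 0.012 with the strict filter for deletion with MRTX1133, and 0.00024 with RLE for the interaction.

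Leaving out 1 library gave these ranges of log2 change. In 1027B with MRTX1133 they were -0.29 to 0.49 for Egfr and -0.20 to 0.15 for Hbegf, against trametinib -0.65 to 0.10 for Egfr, and with trametinib -0.22 to 0.31 for Btc. For deletion in vehicle they were -0.024 to 1.22 for Areg, -0.18 to 0.65 for Egfr and -0.038 to 0.033 for Erbb2, and with MRTX1133 -0.16 to 0.13 for Erbb2. At 2 weeks they were -0.27 to 0.71 for Areg, -0.045 to 0.67 for Btc, -0.73 to 0.038 for Egfr, -0.20 to 0.91 for Ereg, -0.054 to 0.68 for Hbegf and -0.64 to 0.020 for Tgfa. For MRTX1133 after deletion they were -0.0064 to 0.19 for Btc and -0.030 to 0.11 for Erbb2. With Hnf4a intact they were -0.84 to 0.39 for Areg, -0.37 to 0.39 for Btc, -0.58 to 0.24 for Egfr, -1.60 to 1.46 for Epgn, -0.11 to 0.20 for Erbb2, -0.78 to 0.15 for Erbb3, -0.79 to 0.42 for Ereg and -0.095 to 0.29 for Hbegf. For the interaction they were -0.58 to 0.66 for Areg, -0.30 to 0.45 for Btc, -0.48 to 0.34 for Egfr, -0.58 to 2.48 for Epgn, -0.16 to 0.14 for Erbb2 and -0.31 to 0.60 for Erbb3. For induction they were -0.20 to 0.051 for EREG and -0.34 to 0.054 for TGFA. In H1651 with trametinib they were -0.059 to 0.50 for BTC, -0.27 to 0.059 for EGFR, -1.76 to 0.046 for EPGN, -0.87 to 1.19 for ERBB3, -0.022 to 1.24 for ERBB4 and -0.23 to 0.28 for TGFA, and in H358 -0.26 to 0.36 for BTC and -0.059 to 0.10 for EGFR.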
